A study of Mus musculus with 2 samples.

Results

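The plaque-associated microglia genes examined here are 32 genes, chosen by symbol, whose RNA is known to be raised in microglia that touch amyloid plaques. They are 32 of the 53717 features in the deposited gene lists. By role they comprise integrins and other surface receptors (Itgax, Itgb5, Axl, Clec7a, Lilrb4a, Ccrl2, Cadm1), tetraspanins and proteins of lysosomes and membranes (Cd9, Cd63, Cd68, Gpnmb, Cd52), and secreted or secretory-pathway proteins (Spp1, Csf1, Timp2, Serpine2, Mamdc2, Fam20c). The others act in lipid handling (Fabp5, Fabp3, Ch25h, Nceh1), in the cytoskeleton, calcium binding and vesicles (Capg, Anxa5, Baiap2l2, Vat1, Syngr1), or as a channel, a transporter, an oxidase subunit, a mitochondrial subunit and a transcription factor (Kcnj2, Ank, Cybb, Cox6a2, Hif1a). In these data 31 of the 32 had reads in microglia-like cells of both libraries, and Lilrb4a had none in any cell.

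Microglia are the resident immune cells of the brain. In mice that deposit amyloid they gather around plaques, and there they lower the genes of the resting, homeostatic state, such as P2ry12 and Tmem119, and raise genes of phagocytosis, lysosomes and lipid metabolism. The full form of this change depends on the lipid receptor Trem2 and its adaptor Tyrobp. Some of the genes involved, among them Cybb and Cd68, are also used by the border macrophages of the meninges, perivascular space and choroid plexus.

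Single-cell RNA was counted as unique molecular identifiers (UMIs) in 2 libraries of dissociated hippocampus from 5xFAD mice, a strain in which transgenic human amyloid precursor protein and presenilin drive amyloid deposition. One group was injected with AAV9-GFAP::NeuroD1-P2A-GFP, which carries the neuronal transcription factor NeuroD1 and GFP, and the other with AAV9-GFAP::GFP, which carries GFP alone. The GFAP promoter of both viruses drives expression chiefly in astrocytes, not in microglia. Tissue was taken 3 weeks after injection, the labels give 6 months as the time point of both libraries, and each group had 3 mice. There was 1 library per group (the NeuroD1 library and the GFP library), no library of mice without transgenes or without vector was analysed here, and the labels do not say how the mice of a group were combined.

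With 1 library per group no test between groups was possible. Every interval below is a 95% interval for counting error alone, and no replicate check stands behind any difference between the libraries. Levels are given as CPM, the UMIs of a gene scaled to the same total in every group of cells. They are not scaled by gene length, so levels are compared within a gene and not between genes. The libraries held 51236521 and 17504950 UMIs in 13402 and 11739 barcodes, of which 12786 and 11079 cells were kept, with medians of 2556 and 1168 UMIs per cell. They shared 99 barcodes. They also differed in sex-linked RNA, with Xist at 0.0413 and 103 CPM and the Y-linked gene Ddx3y at 69.5 and 0.0618 CPM. Further differences lay in RNA of Ttr, a choroid plexus gene (12.96% and 2.24% of UMIs), and in haemoglobin RNA. With 1 library per group, the injected virus could not be told apart from these differences, sex among them.

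Cells were clustered jointly without the member genes. Microglia-like cells, named from P2ry12, Tmem119, Cx3cr1, complement genes and others, numbered 1224 of the NeuroD1 cells (9.57%) and 3555 of the GFP cells (32.1%). They fell into 3 clusters, each named from markers that are not members: a homeostatic-like state with 550 and 637 cells, a disease-associated-like state with 16 and 2853 cells, and a cytokine-like state with 658 and 65 cells. Disease-associated-like cells were thus 1.31% (interval 0.749 to 2.11) of NeuroD1 and 80.3% (interval 78.9 to 81.6) of GFP microglia-like cells. These shares moved with the clustering far beyond their counting intervals, to 3.84% and 92.8% at a coarser setting and to 0.165% and 36.5% at a finer one. Set against all cells the homeostatic-like cluster was led by Tmem119, P2ry13 and P2ry12, but set against other microglia-like cells its 10 leading genes also held 3 haemoglobin genes. All haemoglobin genes together made up 0.272% and 0% of its UMIs. All 12 microglial markers were detected in microglia-like cells of both libraries, at a summed 57355 and 42792 CPM. Border macrophage markers summed to 137 and 52.9 CPM there (8 and 10 of 10 detected, Lyve1 and Clec10a at 0 in the NeuroD1 library), monocyte markers to 10.3 and 18.4 CPM, and neutrophil markers to 6.33 and 6.80 CPM. T and NK cell markers summed to 15.4 and 251 CPM, nearly all of it Ccl5 in the GFP library.

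Members were not confined to microglia. Among classes with at least 100 cells, 18 of the 31 detected members had their highest CPM in microglia-like cells of the GFP library, against 5.05% of all genes with at least 20 UMIs. In the NeuroD1 library 6 of 31 did, against 8.97% of all genes, and these 6 (Itgb5, Ccrl2, Csf1, Timp2, Syngr1 and Kcnj2) were also highest there in the GFP library. These counts are not like for like, with 11 classes ranked in the NeuroD1 and 10 in the GFP library. Oligodendrocyte precursor-like cells (107 and 32) and fibroblast-like cells were ranked only in the former, T and NK cells only in the latter. The precursor-like cells were highest for Cd9, Serpine2, Gpnmb, Nceh1 and Hif1a in the NeuroD1 library. Cybb, the catalytic subunit of the phagocyte NADPH oxidase, was highest in border macrophage-like cells of both libraries, at 289 and 309 CPM, and lay at 5.54 and 55.9 CPM in microglia-like cells. Microglia-like cells held 9.80% of all member UMIs of the NeuroD1 library and 63.3% of those of the GFP library. The GFP share fell below 50% when called doublets were kept (45.3%) and at the finest clustering (46.2%). In these settings a cluster led by Il1b, with 787 and 728 GFP cells, had microglia as its best match. It had only 2 microglial markers among its 50 leading genes, so it stayed unnamed and outside the class. Its part in the fall was not tested.

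For 11 members the highest class was neither microglia-like nor border macrophage-like in either library. Axl, a receptor for Gas6 and protein S, reached 239 and 235 CPM in pericyte-like cells, and Anxa5, a calcium-dependent phosphatidylserine-binding protein, 564 and 567 CPM in the same class. Ch25h, the cholesterol 25-hydroxylase, reached 119 and 57.3 CPM in endothelial-like cells. Ank, a transporter that exports pyrophosphate precursors, was at 259 and 245 CPM in oligodendrocyte-like cells, and Cadm1, a cell adhesion protein, at 754 and 629 CPM in astrocyte-like cells. Fabp5, a fatty acid-binding protein, was highest among NeuroD1 classes in astrocyte-like cells (747 CPM) and among GFP classes in oligodendrocyte-like cells (390 CPM). Spp1, which encodes the secreted phosphoprotein osteopontin, was highest in 118 fibroblast-like cells of the NeuroD1 library, at 2653 CPM. The 28 fibroblast-like cells of the GFP library, too few to enter the count of highest classes, held it at 1756 CPM, and microglia-like cells held 12.7 and 101 CPM.

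**Figure D1:**
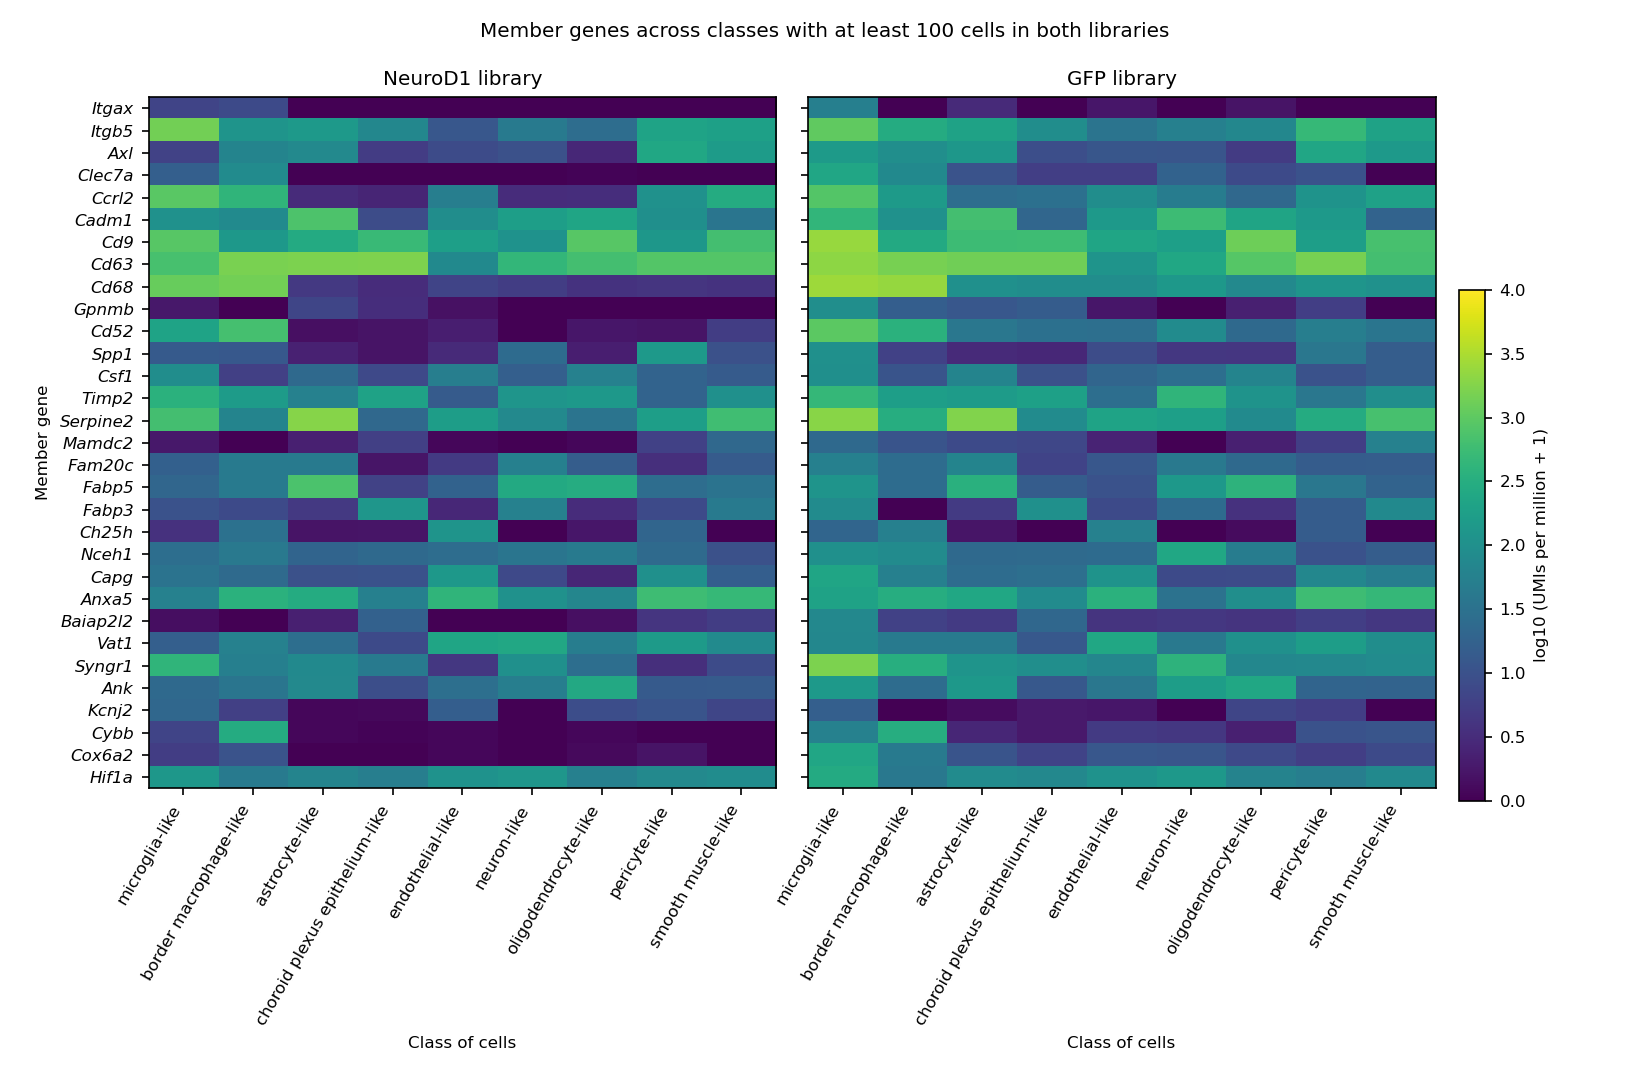
Levels of the 31 detected members (rows) in classes of cells with at least 100 cells in both libraries (columns), as log10 of CPM plus 1, with 1 panel per library. Itgb5 and Ccrl2 are bright in the microglia-like column of both libraries, Cybb in the border macrophage-like column, and Cox6a2, Clec7a, Itgax and Gpnmb are brighter in microglia-like cells of the GFP library than of the NeuroD1 library.

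The promoters of the members are shown for 4 genes whose RNA is followed below: Clec7a (dectin-1, a receptor for beta-glucans), Itgax (the integrin alpha chain CD11c), Cd68 (a lysosomal glycoprotein) and Spp1. RefSeq start sites of the build GRCm38.p6 were matched by symbol for 25 of the 32 members. Each line gives the 250 bases before 1 start site, 5′ to 3′ on the gene's strand, and capitals mark matches on either strand to GAGGAA (the core bound by PU.1 and other ETS factors), CACGTG (an E-box) or TGANTCA (the AP-1 motif).
Clec7a, chr6:129472780-129473029, minus strand: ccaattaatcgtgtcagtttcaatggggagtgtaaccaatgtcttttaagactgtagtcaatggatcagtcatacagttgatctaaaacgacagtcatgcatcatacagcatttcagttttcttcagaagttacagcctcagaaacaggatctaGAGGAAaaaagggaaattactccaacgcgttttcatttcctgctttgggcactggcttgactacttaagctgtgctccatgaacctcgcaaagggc
Itgax, chr7:128129300-128129549, plus strand: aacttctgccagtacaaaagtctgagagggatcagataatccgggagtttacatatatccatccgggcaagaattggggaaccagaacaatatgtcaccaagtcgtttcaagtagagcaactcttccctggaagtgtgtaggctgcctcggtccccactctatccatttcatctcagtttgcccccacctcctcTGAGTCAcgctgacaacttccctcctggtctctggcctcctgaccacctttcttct
Cd68, chr11:69666171-69666420, minus strand: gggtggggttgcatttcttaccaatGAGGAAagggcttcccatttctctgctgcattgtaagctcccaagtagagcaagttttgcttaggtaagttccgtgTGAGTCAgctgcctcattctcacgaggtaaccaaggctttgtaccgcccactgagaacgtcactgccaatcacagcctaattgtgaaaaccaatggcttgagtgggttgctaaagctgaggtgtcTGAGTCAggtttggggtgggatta
Spp1, chr5:104434861-104435110, plus strand: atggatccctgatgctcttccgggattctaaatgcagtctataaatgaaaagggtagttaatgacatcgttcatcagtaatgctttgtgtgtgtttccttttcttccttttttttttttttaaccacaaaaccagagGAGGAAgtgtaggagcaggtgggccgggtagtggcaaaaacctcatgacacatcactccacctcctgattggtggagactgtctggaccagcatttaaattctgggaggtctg
GAGGAA was found before at least 1 start of 8 of the 25 members (32%) and of 25.9% of 27025 genes in the same table. CACGTG was found in 3 of 25 (12%, against 6.86% of all genes) and TGANTCA in 3 of 25 (12%, against 7.82%). In Cd68 the window held 1 GAGGAA and 2 TGANTCA matches, and in Itgax 1 TGANTCA match lay 56 bases before the start. Gpnmb, which encodes a lysosome-associated transmembrane glycoprotein and stood out in the level data, held none of the 3 in its window. A match is a string of letters, and nothing in these data measured binding.

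Within the GFP library nearly all members were higher in disease-associated-like than in homeostatic-like cells. Of the 31 members measured (at least 20 UMIs in both groups of cells together), 30 were at least 1.5-fold higher, against 12.7% of 10482 genes, and none was 1.5-fold lower, against 31.3%. Some of the 30, among them Ch25h, Gpnmb, Itgax, Spp1 and Baiap2l2, reached the limit of 20 UMIs mainly through the disease-associated-like cells. They were higher there, so the count is a description. The median log2 ratio was 1.76, where the median of all genes was -0.26. The summed level of the members was 18047 CPM in disease-associated-like and 8768 CPM in homeostatic-like cells, a ratio of 2.06 (interval 2.003 to 2.116). Cd68, Cd9, Cd63, Serpine2 and Syngr1 made up 63.3% and 61.2% of these sums. The clusters were drawn from other genes of the same cells, so these are descriptions of how the members follow the states.

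Among surface receptors, Clec7a was at 258 CPM in disease-associated-like and 35.6 CPM in homeostatic-like cells of the GFP library, 7.24-fold higher (interval 4.76 to 11.6). Itgax was at 58.4 and 8.09 CPM, a ratio of 7.21 (interval 3.05 to 22.4). In the 65 cytokine-like cells Clec7a had 5 UMIs and Itgax 3, too few to set their level there. Axl had a ratio of 3.05, Ccrl2, an atypical chemerin receptor, 2.38, and Cadm1 2.37. Itgb5, an integrin beta chain that is also known from homeostatic microglia, went the other way at 1018 against 1429 CPM, a ratio of 0.71 (interval 0.66 to 0.77).

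Of the membrane proteins of lysosomes and exosomes, all 5 were higher in the disease-associated-like state. Cd68 was at 2787 CPM in disease-associated-like and 1374 CPM in homeostatic-like cells of the GFP library (ratio 2.03). The tetraspanin Cd63 was at 2314 and 685 CPM (ratio 3.38), and the tetraspanin Cd9 at 2512 and 1585 CPM (ratio 1.59). Cd52, a small glycosylphosphatidylinositol-anchored glycoprotein of leukocytes, had a ratio of 2.45. Gpnmb differed most, with 506 UMIs (107 CPM) against 3 UMIs (4.86 CPM), a ratio of 22.1 with an interval of 7.52 to 108.

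Among secreted and secretory-pathway members, the serpin Serpine2 was at 2064 CPM in disease-associated-like and 1107 CPM in homeostatic-like cells (ratio 1.86). Spp1 was at 115 and 8.09 CPM, a ratio of 14.3 (interval 6.08 to 44.1). The kinase of secreted proteins Fam20c had a ratio of 5.28, the extracellular matrix protein gene Mamdc2 5.07 and the growth factor Csf1 2.85. The metalloproteinase inhibitor Timp2 was at 488 and 324 CPM, close to the 1.5-fold limit at 1.51.

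Lipid-handling members had the highest ratio of summed levels among the role groups, 4.28 (interval 3.25 to 5.76). Fabp5 was at 134 and 11.3 CPM (ratio 11.8, interval 5.69 to 29.5), and the fatty acid-binding protein Fabp3 at 95.5 and 14.6 CPM (ratio 6.56). Ch25h had 105 UMIs against 1, and Nceh1, a cholesteryl ester hydrolase, had a ratio of 1.93.

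Of the remaining members, Cox6a2, a muscle-type subunit of cytochrome c oxidase, was at 260 and 30.8 CPM (ratio 8.47, interval 5.40 to 14.1). Baiap2l2, an adaptor at the plasma membrane, was at 81.3 and 8.09 CPM (ratio 10.0, interval 4.27 to 31.1). The actin-capping protein gene Capg had a ratio of 4.31, Cybb 4.28, Anxa5 4.01 and the vesicle protein gene Vat1 3.96. Syngr1, a synaptic vesicle protein gene, was at 1754 and 618 CPM (ratio 2.84). Hif1a, the oxygen-regulated transcription factor, had a ratio of 2.35, Ank 2.26, and the potassium channel gene Kcnj2 2.56 with an interval of 0.96 to 9.62.

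The NeuroD1 library had 16 disease-associated-like cells, in which 16 of 19 measured members were at least 1.5-fold higher than in its homeostatic-like cells, against 18.6% of all genes, and none was lower, against 41.5%. Clec7a and Spp1 reached the limit of 20 UMIs mainly through these 16 cells, so the count is a description. Summed levels were 16141 and 6724 CPM, a ratio of 2.40 (interval 2.23 to 2.58). Clec7a was at 334 CPM (17 UMIs) against 3.77 CPM (3 UMIs), Itgax had 8 UMIs against 1, and Cd9 was at 2828 against 916 CPM. Haemoglobin genes made up 5.07% of the UMIs of these 16 cells, nearly all in 1 cell of which they were 45.7% of UMIs. That cell had 7 member UMIs, and the other 15 cells had a ratio of 2.68 (interval 2.48 to 2.88), a value added after the data were seen. Another single cell held 21 of their 22 Spp1 UMIs. Endothelial markers summed to 1276 CPM in the 16 cells (7 of 9 detected, Cdh5 and Kdr at 0) and to 244 CPM in homeostatic-like cells (9 of 9), and their part in the result was not tested. In the finer clustering 8 of the 16 lay in cluster 2, which is unnamed and led by Il1b, and the disease-associated-like cluster 1 held 1 NeuroD1 cell. The ratio did not hold when called doublets were kept: the cluster then named disease-associated-like held 30 cells of this library and its ratio was 0.858 (interval 0.722 to 1.01). At the finest clustering 2 cells had the name, with a ratio of 1.14 (interval 0.830 to 1.52).

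In the cytokine-like state, marked by Il1a, Tnf and chemokines, the members stood near the homeostatic level. In the NeuroD1 library, where this state was most abundant, 3 of 22 measured members were at least 1.5-fold higher than in homeostatic-like cells, against 8.87% of all genes, and 2 were lower, against 19.2%. Summed levels were 7382 and 6724 CPM. Ccrl2 was at 1331 CPM against 172 CPM, a ratio of 7.74 (interval 6.51 to 9.27), and Csf1 at 126 against 15.1 CPM, a ratio of 8.34 (interval 4.67 to 16.4). In the GFP library 4 of 19 measured members were higher in cytokine-like cells, against 21% of all genes, and 5 lower, against 22.7%. Ccrl2 was higher there too (1456 against 372 CPM), as was Csf1 (127 against 37.2 CPM). These genes therefore had another site of high RNA apart from the disease-associated-like state. Not every cytokine-rich group stood near the homeostatic level. In the GFP library finer cluster 2 (638 cells, unnamed and led by Il1b) had a summed member level of 18895 CPM. The 65 cytokine-like cells of that library had 8420 CPM.

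**Figure D2:**
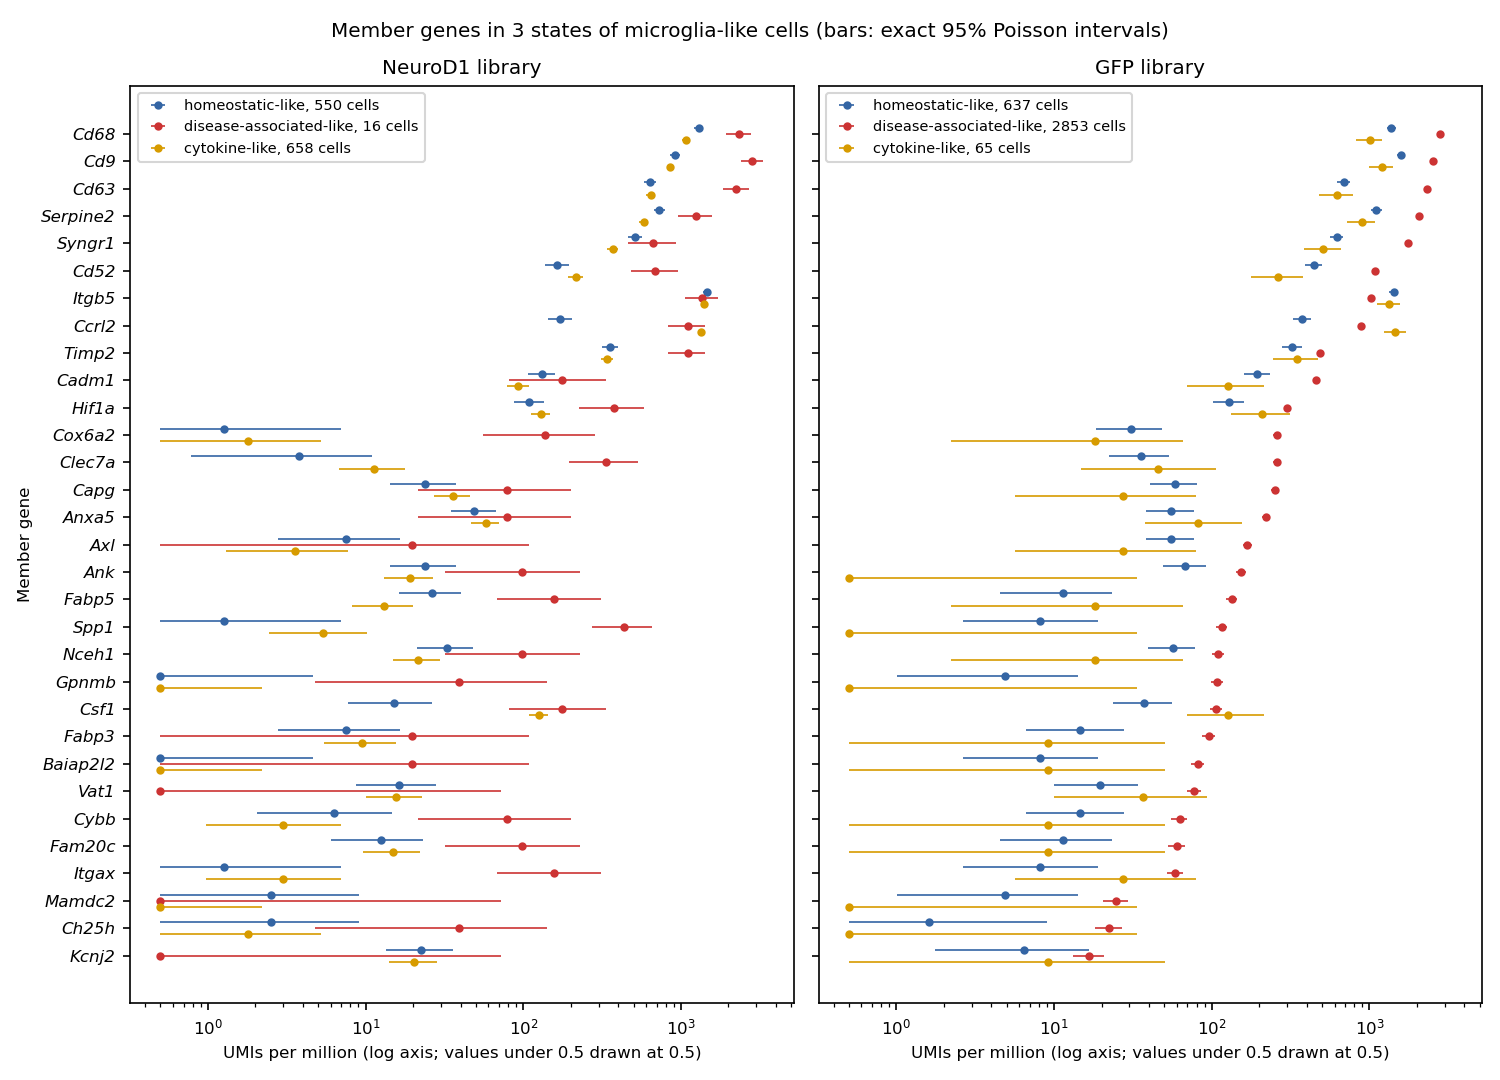
CPM (log axis) of each member in homeostatic-like, disease-associated-like and cytokine-like cells, with exact 95% Poisson intervals, 1 panel per library. In the GFP library the disease-associated-like points lie to the right for all members shown but Itgb5, Ccrl2 and Csf1, and Ccrl2 and Csf1 are highest in cytokine-like cells there.

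Finer clusters within the microglia-like class, also drawn without the members, showed how members differ among themselves. In the GFP library the largest were cluster 0 (693 cells, unnamed), cluster 1 (677 cells, disease-associated-like and led by Mmp12, Spp1, Gpnmb and Lgals3) and cluster 2 (638 cells, unnamed and led by Il1b). Smaller ones included cluster 7 (210 cells, unnamed and led by Gfap, Vtn and GFP) and cluster 8 (183 cells, interferon-like). Between clusters 1 and 0, 11 of 31 members were at least 1.5-fold higher in cluster 1, against 10.9% of all genes, and none was lower, against 9.72%. The widest gaps were in Spp1 (237 against 26.8 CPM, ratio 8.87, interval 5.65 to 14.7), Gpnmb (174 against 20.1 CPM, ratio 8.69, interval 5.17 to 15.8) and Fabp5 (210 against 45.5 CPM, ratio 4.61). Clec7a, Cd68, Cd9, Axl and Cox6a2 differed by less than 1.5-fold. Between clusters 1 and 2, 1 of 31 was at least 1.5-fold higher in cluster 1 (Spp1, against 59.7 CPM in cluster 2), where 11.2% of all genes were. Ccrl2 was lower, at 538 against 1507 CPM, where 13.7% of all genes were.

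Gpnmb and Spp1 were crowded into few cells. In the 3555 microglia-like cells of the GFP library, 12 cells held 50% of the 509 Gpnmb UMIs, with 12 to 56 UMIs each, and 11 cells held 50% of the 549 Spp1 UMIs, with 11 to 74 each. By comparison Nceh1, with 551 UMIs, needed 181 cells, and Fabp5, with 639 UMIs, needed 94. The Gpnmb-rich and Spp1-rich cells shared 3 cells, 7 of the 12 and 8 of the 11 lay in cluster 1, and their median depths were 3014 and 3100 UMIs. Fibroblast markers had 0 UMIs in both sets, and border macrophage markers 7 and 3 UMIs. Intervals for Gpnmb and Spp1 therefore understate their error, since they treat each UMI as independent. In the NeuroD1 library 1 cell held 21 of the 32 Spp1 UMIs of microglia-like cells.

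**Figure D3:**
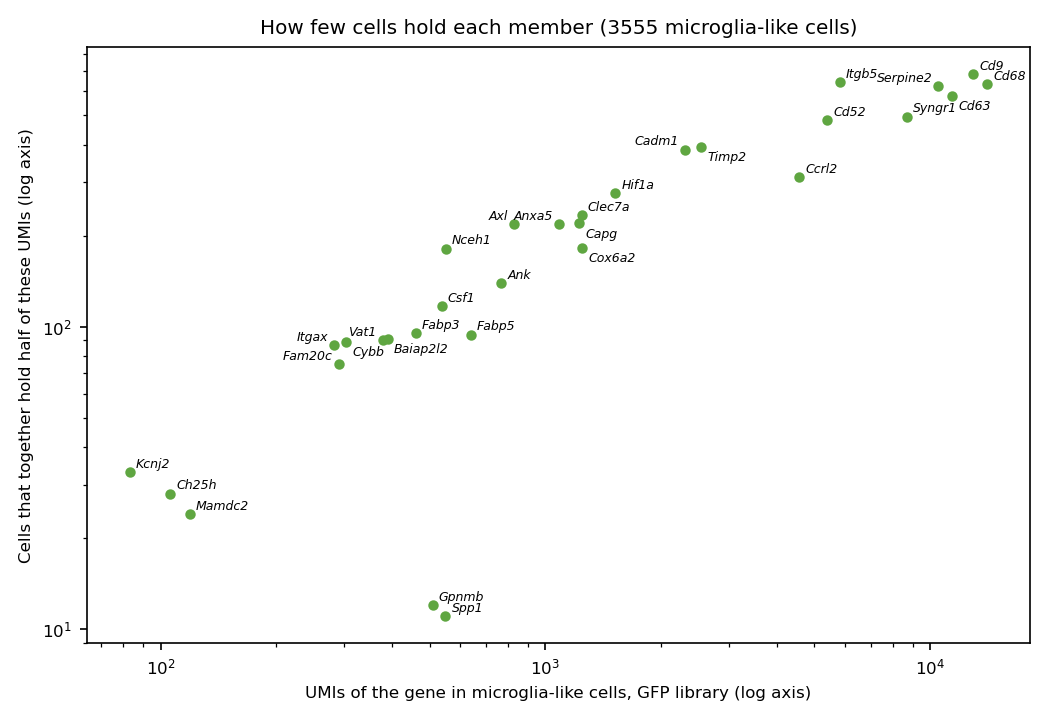
For each member, the UMIs in microglia-like cells of the GFP library (x, log axis) and the smallest number of cells that together hold 50% of them (y, log axis). Most members follow a band from Kcnj2 (83 UMIs, 33 cells) to Cd9 (12947 UMIs, 684 cells), and Gpnmb and Spp1 lie far under it.

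Between the libraries, microglia-like cells as a whole had lower levels of most members in the NeuroD1 library. Of 31 measured members, 26 were at least 1.5-fold lower, against 15.8% of 11617 genes, and none was 1.5-fold higher, against 36.9%. The median log2 ratio of NeuroD1 over GFP library was -2.15, and the median of all genes was 0.34. Summed levels were 7351 and 16798 CPM, a ratio of 0.438 (interval 0.431 to 0.445). The class was made of different clusters in each library: the homeostatic-like and cytokine-like clusters held most of it in the NeuroD1 library, and the disease-associated-like cluster held most of it in the GFP library. Fewer cells of a state and less RNA per cell both lower such a sum, so the states are compared one by one below.

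Surface receptors were split. Axl, at 5.14 and 152 CPM in NeuroD1 and GFP cells, was lower by 29.6-fold with an interval of 17.2 to 55.9. Clec7a, at 15.4 and 228 CPM, was lower by 14.8-fold with an interval of 10.8 to 20.9. Itgax, at 5.54 and 52.0 CPM, was lower by 9.39-fold and Cadm1, at 106 and 424 CPM, by 3.998-fold. Itgb5, at 1414 and 1071 CPM, and Ccrl2, at 961 and 838 CPM, were close in both libraries, with ratios of 1.32 and 1.15. Lilrb4a, an inhibitory receptor gene, had 0 UMIs, which allows up to 1.19 and 0.552 CPM in microglia-like cells of the 2 libraries. Its close paralog Lilr4b, named after its values were seen, had 7 and 109 UMIs there, and the sources used here do not say how reads shared by the pair were counted.

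All 5 tetraspanin, lysosomal and membrane members were lower in the NeuroD1 library. Cd68 was at 1166 and 2590 CPM (2.22-fold lower), Cd9 at 915 and 2380 CPM (2.60-fold), Cd63 at 672 and 2095 CPM (3.12-fold) and Cd52 at 208 and 993 CPM (4.77-fold). Gpnmb had 2 and 509 UMIs (0.791 and 93.6 CPM), a 118-fold lower level with an interval of 32.6 to 979. Of the secreted group, Serpine2 was at 640 and 1932 CPM (3.02-fold lower), Spp1 at 12.7 and 101 CPM (7.97-fold), Fam20c at 15.8 and 53.3 CPM (3.37-fold), and Mamdc2 had 2 and 119 UMIs. Csf1 was at 91.8 and 98.7 CPM and Timp2 at 359 and 466 CPM, both within 1.5-fold.

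All 4 lipid-handling members were lower: Fabp3 by 9.29-fold, Ch25h by 7.04-fold, Fabp5 by 5.82-fold and Nceh1 by 3.82-fold. All 5 of the cytoskeletal, calcium-binding and vesicle group were lower as well, from Anxa5 at 55.4 and 199 CPM (3.60-fold) and Syngr1 at 419 and 1600 CPM (3.82-fold) to Baiap2l2 with 1 and 389 UMIs. In the last group Cox6a2 was at 4.35 and 229 CPM (lower by 52.7-fold, with an interval of 29.4 to 106), Cybb at 5.54 and 55.9 CPM (10.1-fold), Ank at 22.2 and 141 CPM (6.36-fold) and Hif1a at 128 and 279 CPM (2.19-fold). Kcnj2 was at 20.6 and 15.3 CPM, a ratio of 1.35 with an interval of 0.935 to 1.93. Cd68, Cd9, Cd63, Serpine2 and Syngr1, which held most member UMIs, thus differed by 2.22- to 3.82-fold, and members with few UMIs in the NeuroD1 library, such as Axl, Cox6a2 and Gpnmb, by far more.

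Within the homeostatic-like state, with 550 and 637 cells, the ratios lay nearer to 1. Of 22 measured members, 11 were at least 1.5-fold lower in the NeuroD1 library, against 12.3% of 7576 genes, and 2 were higher, against 24.8%. Of the 11, Axl, Clec7a, Csf1, Capg, Ank and Cox6a2 reached the limit of 20 UMIs mainly through the GFP library, where they were higher, so the count is a description. The median log2 ratio was -0.59, with 0.19 over all genes, and summed levels were 6724 and 8768 CPM, a ratio of 0.767. The median was -0.14 at a coarser clustering and -0.18 when called doublets were kept. Among the members within 1.5-fold, Itgb5 was at 1455 and 1429 CPM, Cd68 at 1293 and 1374 CPM, and Cd63 at 636 and 685 CPM, all 3 with intervals of the ratio that held 1.

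The members that were lower in homeostatic-like cells of the NeuroD1 library included Cd9 (916 and 1585 CPM, 1.73-fold), Cd52 (164 and 442 CPM, 2.69-fold), Ccrl2 (172 and 372 CPM, 2.16-fold) and Serpine2 (728 and 1107 CPM, 1.52-fold). Capg was 2.44-fold, Csf1 2.47-fold, Ank 2.85-fold and Nceh1 1.74-fold lower. Cox6a2 had 1 and 19 UMIs, Clec7a 3 and 22, and Axl 6 and 34. The 2 members that were higher, Kcnj2 with 18 and 4 UMIs and Fabp5 with 21 and 7, rested on few UMIs, and the interval for Fabp5 held 1 (0.953 to 6.48).

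Finer clustering split the homeostatic-like cells largely by library. Cluster 5 held 470 NeuroD1 and 42 GFP cells, with haemoglobin at 0.0205% and 0% of UMIs. Cluster 4, led by haemoglobin genes and unnamed, held 91 and 534 cells, with 2.26% and 0%. In cluster 5, 2 of 14 measured members were at least 1.5-fold lower in the NeuroD1 library, against 26.1% of all genes, and 1 was higher, against 25%. This cluster held 746323 NeuroD1 and 53029 GFP UMIs, so a gene low in the NeuroD1 library could rarely be measured. Clec7a (4.02 and 56.6 CPM, 3 and 3 UMIs), Cox6a2 (1 and 3 UMIs) and, in the other direction, Kcnj2 (18 and 0) were not measured. The higher member, Anxa5, had 35 and 1 UMIs. The counts therefore do not show whether the libraries differed in cluster 5. In cluster 4, 10 of 17 were lower, against 21.4%, and 1 was higher, against 24.1%. Of the lower members, Axl (0 and 23 UMIs), Cox6a2 (0 and 22), Capg (1 and 31) and Nceh1 (2 and 31) were measured mainly through the GFP library. The count is thus a description. The interval of the ratio lay below 1 for 6 of the 17, above 1 for 2, and held 1 for 9. In the cytokine-like state 5 of 21 members were lower, against 23.6% of all genes, and 2 were higher, against 24.4%. Its median log2 ratio was -0.13 and its summed levels were 7382 and 8420 CPM. This state held 1679858 NeuroD1 and 109854 GFP UMIs, so its counts are descriptions too. The 2 higher members, Ank (32 and 0 UMIs) and Kcnj2 (34 and 1), rested on few GFP UMIs. Itgax (5 and 3), Axl (6 and 3) and Spp1 (9 and 0) were among those with too few UMIs to be measured.

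**Figure D4:**
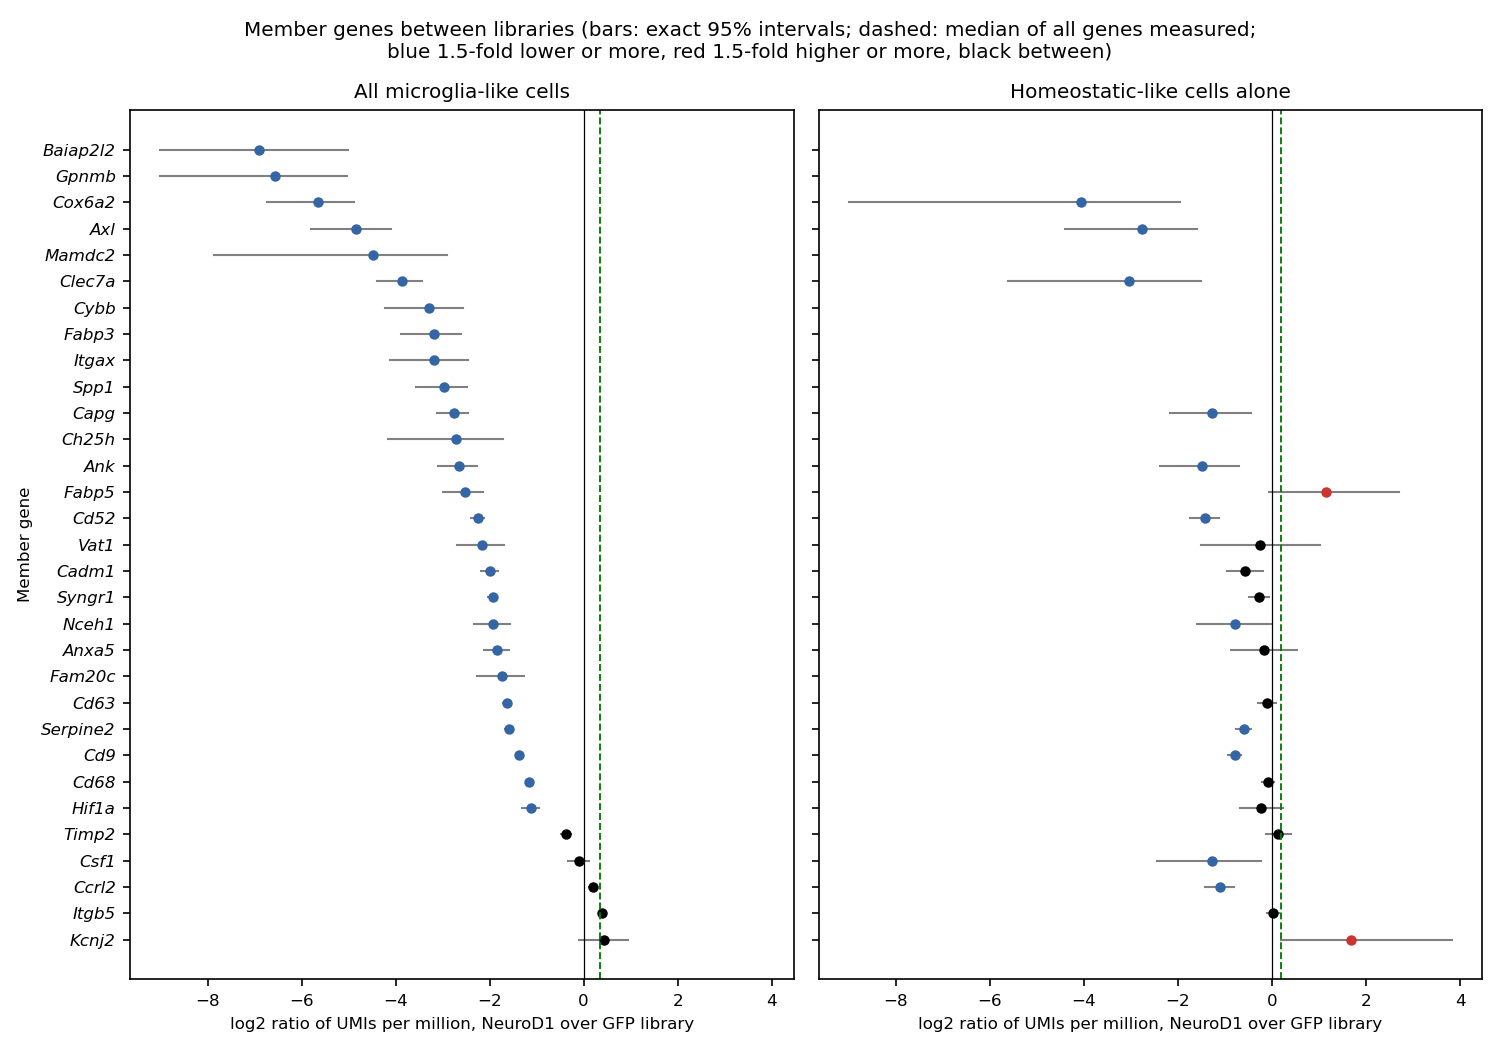
log2 ratio of CPM (NeuroD1 over GFP library) for each measured member, with exact 95% intervals cut at the edge of the axis range, in all microglia-like cells (left) and in homeostatic-like cells alone (right). On the left 26 of 31 points lie at least 1.5-fold below equal levels, and on the right 11 of 22 do.

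RNA of myeloid members was also counted in oligodendrocyte-like cells, where it can come from free RNA, and more of it in the GFP library. Cd68 was at 2.85 and 74.1 CPM in oligodendrocyte-like cells of the NeuroD1 and GFP libraries, Cd52 at 0.76 and 22.5 CPM, Clec7a at 0.095 and 6.98 CPM and Cox6a2 at 0.285 and 6.68 CPM. In that class 13 of 25 measured members were at least 1.5-fold lower in the NeuroD1 library, against 15.5% of all genes, and none was higher, against 11.9%. With each member's oligodendrocyte-like level subtracted within its library, 24 of 31 members were at least 1.5-fold lower in microglia-like cells and the homeostatic-like median was -0.37. In microglia-like cells, choroid plexus markers summed to 15297 and 2080 CPM (8 of 8 detected in both libraries) and red blood cell markers to 1982 and 3.68 CPM (5 and 3 of 5 detected, with Hbb-bt and Alas2 at 0 in the GFP library). Their part in the differences was not tested.

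Counted per cell, after every cell was thinned to 500 UMIs, 10.5% (interval 8.87 to 12.4) of microglia-like cells in the NeuroD1 library and 58.4% (interval 56.7 to 60) in the GFP library had UMIs of 5 or more members. Before thinning the median microglia-like cell had 6 and 9 members at median depths of 1811 and 1308 UMIs. Among homeostatic-like cells the thinned shares were 9.64% (interval 7.30 to 12.4) and 19.8% (interval 16.8 to 23.1), and among disease-associated-like cells 50% of 16 cells and 68.0% of 2853. Cytokine-like cells lay at 10.3% and 15.4%. Oligodendrocyte-like cells had 0.222% and 0.835%, and endothelial-like cells 0.0489% and 0.290%, against which the microglial shares can be read. Within finer clusters of mostly homeostatic-like cells the intervals overlapped, at 8.72% (interval 6.33 to 11.6) and 11.9% (interval 3.98 to 25.6) in cluster 5 and at 14.3% (interval 7.83 to 23.2) and 19.7% (interval 16.4 to 23.3) in cluster 4.

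**Figure D5:**
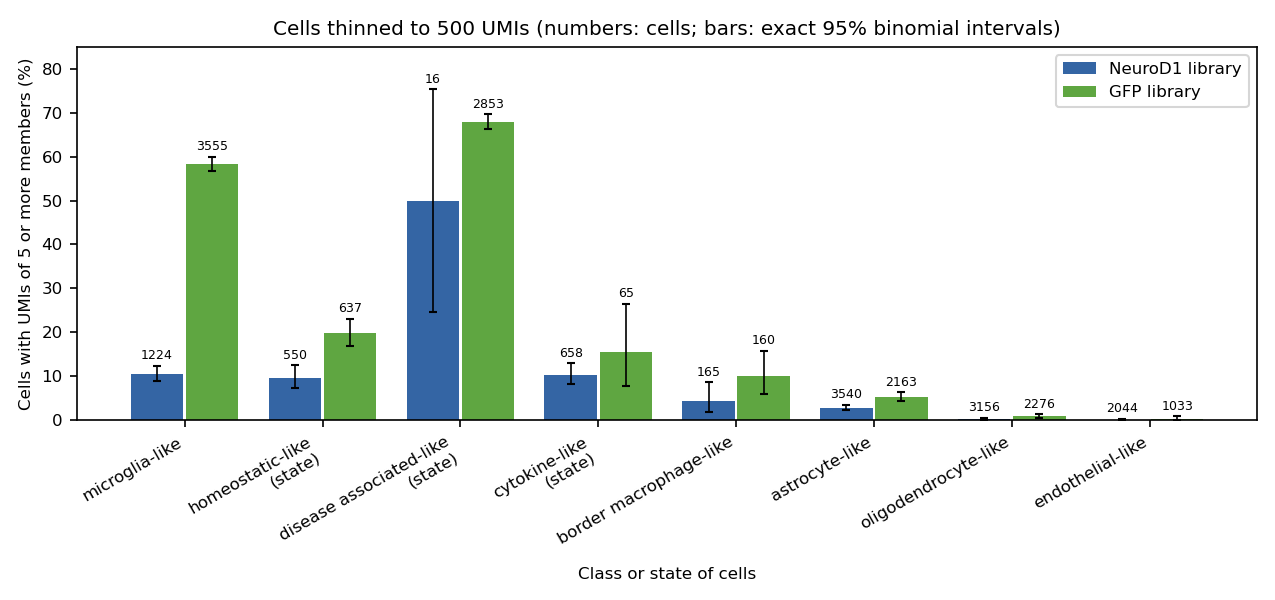
Share of cells (%) with UMIs of 5 or more members after thinning each cell to 500 UMIs, for classes and microglial states, with exact 95% binomial intervals and the number of cells above each bar. The disease-associated-like bars are the highest in both libraries, and the homeostatic-like bar of the GFP library lies above that of the NeuroD1 library.

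Border macrophage-like cells, 165 and 160 in number, had high RNA of another subset of the members. Choroid plexus markers summed to 22971 and 1837 CPM in them (8 and 4 of 8 detected), and oligodendrocyte markers to 2639 and 845 CPM (9 of 9 in both). Finer clusters led by MHC class II genes, of 33 and 20 and of 18 and 7 cells, had 4 border macrophage markers each among their 50 leading genes. The part of these in the values below was not tested. In the GFP library 3 of 31 measured members were at least 1.5-fold higher there than in microglia-like cells, against 31.1% of all genes, and 24 were lower, against 24.4%. The 3 were Cybb (309 against 55.9 CPM, ratio 5.54, interval 4.15 to 7.28), Ch25h (54.0 against 19.5 CPM) and Anxa5 (309 against 199 CPM). In the NeuroD1 library 12 of 26 were higher, against 19.1%, and 9 lower, against 30.7%, with Cybb at 289 against 5.54 CPM, Axl at 63.4 against 5.14 CPM and Clec7a at 84.5 against 15.4 CPM. Summed member levels were 0.789 times those of microglia-like cells in the NeuroD1 library and 0.417 times in the GFP library. Between libraries the border macrophage-like sum was lower in the NeuroD1 library, at 5803 against 7007 CPM. Of 22 measured members, 8 were at least 1.5-fold lower in the NeuroD1 library, against 18.6% of all genes, and 4 higher, against 19.5%.

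Other genes of these pathways were read from 4 lists in microglia-like cells. Of 29 measured other disease-associated genes, 21 were at least 1.5-fold lower in the NeuroD1 library, against 15.8% of all genes, and 3 higher, against 36.9%, the latter being Ccl3, Ccl4 and Cd83, which also mark the cytokine-like state. Of 22 homeostatic genes, 20 were at least 1.5-fold higher, against 36.9% of all genes, and none lower, against 15.8%, among them P2ry12 (5750 and 2514 CPM), the fractalkine receptor gene Cx3cr1 (3017 and 1050 CPM) and Crybb1 (995 and 95.8 CPM). In these lists 16 of 30 and 10 of 22 genes were themselves markers used to name states, so their direction follows the naming in part. Of 14 measured transcription factors 11 were higher, against 36.9% of all genes, among them Maf and Irf8, and 1 was lower, against 15.8%. It was Bhlhe40, at 4.75 and 25.9 CPM. The lysosomal regulators Tfeb and Tfe3 were higher, at 43.9 against 21.9 and 68.1 against 31.8 CPM. These values pool the states. In finer cluster 4 the intervals of both ratios held 1 (0.313 to 2.76 and 0.170 to 3.09).

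Partners of the members were read in the same way. Of 23 measured ligands, co-receptors and subunits, 12 were at least 1.5-fold higher in microglia-like cells of the NeuroD1 library, against 36.9% of all genes, and 3 lower, against 15.8% (Itga4, Tyro3 and Cd44, a receptor for Spp1 with 0 and 20 UMIs). Syk and Card9, which signal downstream of Clec7a, were at 93.4 against 33.1 and 41.1 against 15.1 CPM. The integrin alpha chain Itgav, which pairs with Itgb5, was at 73.6 against 27.2 CPM, and Mertk, a receptor related to Axl, at 281 against 118 CPM. Itgb2, the beta chain of Itgax, was at 334 and 286 CPM, and Csf1r, the receptor for Csf1, at 3451 and 1389 CPM. The NADPH oxidase subunits Ncf1 and Ncf4 were higher, at 223 against 93.9 and 85.9 against 46.9 CPM, while Cyba, which pairs with Cybb, was at 1094 and 1438 CPM. Clec7a and Cybb were thus lower in a class where RNA of several of their partners was not. The class pools states whose shares differ between the libraries, so these are not differences within a state. In finer cluster 4 the interval of the ratio held 1 for Syk, Itgav, Ncf1, Ncf4, Itgb2 and Cyba. It lay above 1 for Mertk (1.08 to 2.62) and Csf1r (1.14 to 1.47), and Card9 had too few UMIs there.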

How the data were processed

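Each library was deposited as a matrix of raw UMI counts, which the authors had not normalized. FastQC, fastp, cutadapt, STAR and featureCounts and the build mm39 are named, without versions, per the submitters' processing notes. The labels name both a microwell chip and another platform, which is not settled here. A cell needed at least 200 detected genes and no more than 20% of UMIs from mitochondrial genes, Scrublet-called doublets were removed (485 and 556), and Leiden clustering (resolution 1.0, 3000 variable genes without the members, 30 components, 15 neighbours, scanpy 1.11.5, leidenalg 0.10.2, Python 3.11.15) was named from markers, with at least 3 among the 50 leading genes. Border macrophage-like and immature neuron-like clusters were clustered again to set apart neutrophils and cycling cells. Unnamed clusters stayed out of the class: cluster 12 (0.0469% and 5.30% of cells) and cluster 24 (0% and 0.496%), whose summed member levels in the GFP library were 13047 and 15094 CPM.

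Raw counts were summed per library and group of cells. CPM has an exact Poisson 95% interval, a ratio an exact conditional binomial one, and a share an exact Clopper-Pearson one. A gene was measured where the 2 sums held at least 20 of its UMIs, and 0.5 UMI was added for log2 ratios. A gene rare in 1 sum could thus be measured through the other alone, so all counts of members called are descriptions. The ratio step was tested on simulated counts. All members are named, and genes of 4 lists as examples. By the fixed rule, members with the most microglia-like UMIs in each role group and those highest in another class get values by class or state. The members, lists, markers and printed promoters were chosen with earlier results of these data known. Alternatives covered filters, doublets, clustering, thinning, weighting, scaling and subtraction of oligodendrocyte-like levels.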

Additional observations from a re-analysis of the deposited data

How the results depend on the processing

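Across 12 alternatives, 57 of 102 recomputed values stayed within the counting interval of the reported one (the count of members within 1.5 times, medians within a middle range of the members), 44 moved and 1 reversed. The count of members at least 1.5-fold lower in microglia-like cells of the NeuroD1 library was between 24 and 27 under the 11 alternatives that gave it. The homeostatic-like median stayed negative, from -0.79 to -0.14. The middle range of its members held 0 at resolution 0.5 (-0.491 to 0.288) and with called doublets kept (-0.597 to 0.0963). No paired analysis was possible because each group had 1 library. Causes of the following shifts were not tested. With called doublets kept, the ratio of summed member levels between disease-associated-like and homeostatic-like cells was 0.858 in the NeuroD1 library, the reversed value, and 2.26 in the GFP library. The sum ratio in microglia-like cells was then 0.448, the disease-associated-like shares 2.36% and 86.0% with a ratio of 0.0274, the microglia-like share of GFP member UMIs 45.3%, and the border macrophage-like ratios 0.845 and 0.461. At resolution 0.5, which gave no cytokine-like state, the shares were 3.84% and 92.8% (ratio 0.0414), the state ratios 1.73 and 2.15, and the GFP member share 64.3%. At resolution 2.0 they were 0.165% and 36.5% (ratio 0.00451), 1.14 and 2.34, and the member shares 9.39% and 46.2%. With members among the clustering genes the shares were 0.743% and 77.7%, the NeuroD1 state ratio 3.00003 and the GFP member share 62.9%. At 10% mitochondrial UMIs the GFP library gave 76.9%, 2.0016 and 64.1%. With oligodendrocyte-like levels subtracted the microglia-like median was -3.13, the sum ratio 0.392, the state ratios 2.99 and 2.51, and the border ratios 0.850 and 0.373. With cells weighted equally the sum ratio was 0.455, the state ratios 2.13 and 1.95 and the NeuroD1 border ratio 0.833. Thinned to 500 UMIs, the member shares were 15.8% and 58.8%, the GFP state ratio 1.95 and the GFP border ratio 0.452. Centred on the median gene, the sum ratio was 0.345. Without the haemoglobin-rich cell, an alternative chosen after seeing the data, the NeuroD1 state ratio was 2.68. Depth limits members with few UMIs: Gpnmb, Mamdc2 and Baiap2l2 rest on 2, 2 and 1 UMIs in microglia-like cells of the NeuroD1 library.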

Other observations

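Members were also abundant in GFP cells outside the named microglial states. An unnamed cluster of 54 cells led by the cell cycle genes Ccnb2 and Top2a, all from the GFP library, had a summed member level of 13638 CPM, and 46.3% of its cells had UMIs of 5 or more members after thinning. In these cells Cd52 was at 1299 CPM and Syngr1 at 1682 CPM. Another unnamed cluster led by cell cycle genes, of 31 NeuroD1 cells, had 7289 CPM and 12.9%. Cluster 24, 55 GFP cells led by chemokine and interferon-induced genes, had 15094 CPM. Cybb was at 319 CPM there (interval 204 to 474) against 62.4 CPM in disease-associated-like cells of the same library, and Axl at 292 CPM (interval 183 to 443) against 168 CPM. Each of these clusters came from 1 library.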
